A study of Danio rerio with 9 samples.

Results

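Circular RNAs (circRNAs) that took a larger share of the circRNA reads of zebrafish caudal fin at 3 days after amputation (3 dpa) than in intact fin are described here and followed to 7 dpa. A circRNA was a member when it had at least 20 reads summed over the 9 libraries, a mean RPM (reads scaled to a library total of 1000000) at 3 dpa at least 2 times that of intact fin, and every 3 dpa value above every intact value. Of the 5578 circRNAs listed, 914 had at least 20 reads, and 104 of these (11.4%) were members. The members were thus chosen by their measured intact and 3 dpa values. The mirrored rule, for a smaller share at 3 dpa, found 184.

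The fish were wild type, per the labels. The control group was the intact caudal fin (CK0dpa, 3 libraries), and the regenerated caudal fin was taken at 3 dpa (T3dpa, 3 libraries) and 7 dpa (T7dpa, 3 libraries) after removal of the fin. All libraries were made from total RNA by random priming. Neither the age of the fish nor the number of fish behind a library is stated in the labels. A limma p-value here sets a difference against a spread between libraries of the same group. For most circRNAs that spread came from a trend over all circRNAs tested, not from their own 3 libraries a group. It may be technical.

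A circRNA forms when the spliceosome joins the end of an exon back to the start of the same or an earlier exon, which closes the RNA into a ring. Rings have no free ends, resist exonucleases and tend to outlast linear RNA of the same gene. A regenerating fin carries a wound epidermis over a blastema of dividing progenitor cells, from which bone, connective tissue and vessels regrow. The files number the circRNAs and pair none of them with a host gene or a position. No role is therefore given to any of them, and the fin label could not be checked against marker genes.

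The libraries held 14631 to 16262 circRNA reads in intact fin, then 12070 to 13443 (3 dpa) and 12427 to 13507 (7 dpa). A single read was worth 61.5 to 82.9 RPM. A share is relative to all circRNA reads of a library, so more RNA of a member and less RNA of the other circRNAs cannot be told apart, nor can fewer cells of a type and less RNA per cell. Over the 3213 circRNAs with a read in at least 3 libraries, the median log2((mean RPM + 75) ratio) was -0.19 at 3 dpa against intact fin, 0.02 at 7 dpa against intact fin and 0.17 at 7 dpa against 3 dpa. Over the 104 members these medians were 1.84, 1.01 and -0.72, of which the first was set by the rule.

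Summed over the members, the share of circRNA reads was 5.22%, 5.64% and 4.50% in the 3 intact fins, 22.8%, 24.2% and 24.5% at 3 dpa and 13.7%, 13.1% and 12.3% at 7 dpa. All 7 dpa libraries thus lay between the intact and the 3 dpa libraries, with no overlap. Exact (Clopper-Pearson) 95% intervals, which cover counting error only, ran from 4.17% to 6.0% over the intact libraries, from 22.1% to 25.3% at 3 dpa and from 11.8% to 14.3% at 7 dpa. The group means were 5.12% ± 0.57, 23.8% ± 0.93 and 13.0% ± 0.67 (SD, n = 3). The intact and 3 dpa values chose the members and are a description. The 7 dpa values entered the rule only through the read minimum. At 7 dpa 42.2% of the difference between intact fin and 3 dpa remained.

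The 184 circRNAs of the mirrored rule ran the other way, with 17.3% ± 0.36 of the reads in intact fin, then 4.64% ± 0.44 (3 dpa) and 10.4% ± 0.54 (7 dpa; SD, n = 3). Of their difference 54.4% remained at 7 dpa. The circRNAs with at least 20 reads that met neither rule held 51.9% ± 2.0, 51.0% ± 0.89 and 53.0% ± 1.3. Those under 20 reads held 25.7% ± 1.3, 20.5% ± 0.45 and 23.6% ± 1.3.

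**Figure D1:**
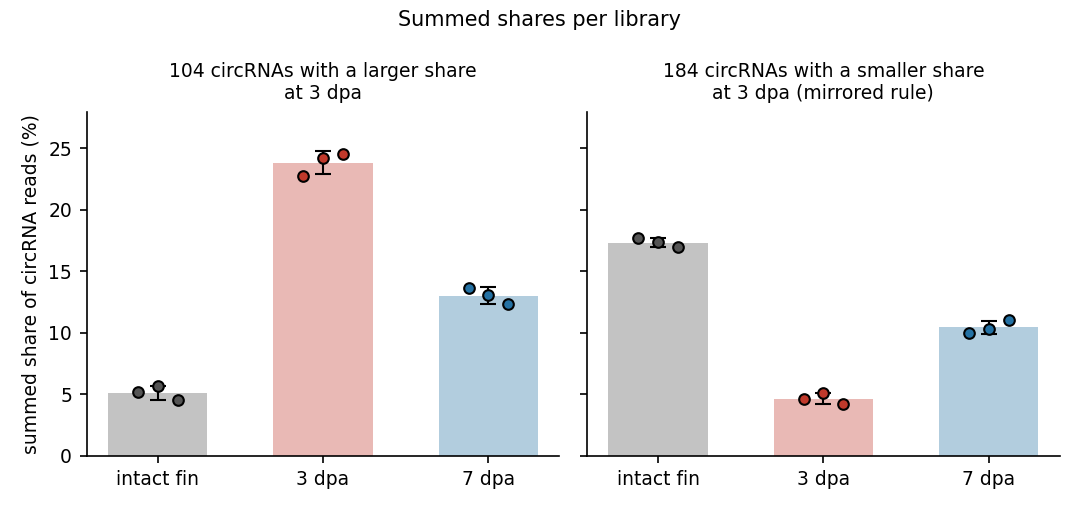
Summed share of circRNA reads (%) in each library for the 104 members (left) and for the 184 circRNAs of the mirrored rule (right). Points are libraries, bars are group means and error bars are SD (n = 3). The 7 dpa libraries of the members sit between 12.3% and 13.7%, above the intact and below the 3 dpa libraries.

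Because the rule picks extreme values, it was applied again without 1 intact and 1 3 dpa library, for each of the 9 pairs of libraries that can be left out. The rule then chose 108 to 126 circRNAs. Only 75 to 83 of these were members, and each chosen set lacked some of the members. The values that follow are therefore for the chosen sets and not for the members alone. In the libraries that chose a set, the summed share of its circRNAs at 3 dpa was 4.15 to 4.85 times that of intact fin. In the 2 libraries left out, the ratio was 3.26 to 4.29, with 5.57% to 6.87% of the reads in the left-out intact library and 22.4% to 24.5% in the left-out 3 dpa library. Among the chosen circRNAs, 76.2% to 83.1% had a higher RPM in the left-out 3 dpa library than in the left-out intact one. The same share over all circRNAs was not taken, so these percentages have no background beside them and are a description. The mean 7 dpa share of the same circRNAs was 13.7% to 15.1%. Measured against the left-out libraries, 41.4% to 48.4% of the 3 dpa difference remained at 7 dpa. The 9 values share libraries and are a description.

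**Figure D2:**
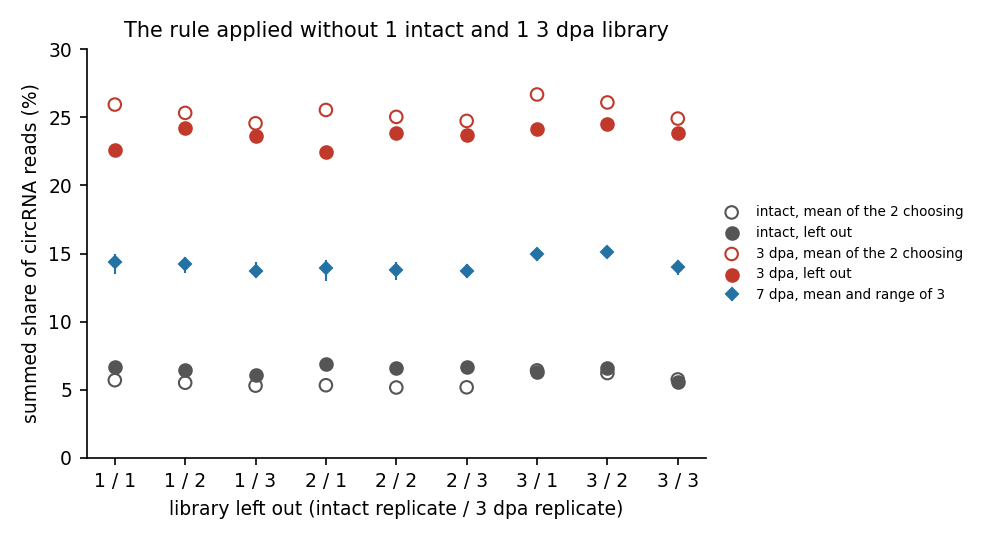
Summed share of circRNA reads (%) for circRNAs chosen without 1 intact and 1 3 dpa library; the horizontal axis names the replicates left out. Open circles are means of the choosing libraries, filled circles the left-out libraries, and diamonds the mean of the 7 dpa libraries with their range. Every left-out 3 dpa library lies at 22.4% or above and every left-out intact library at 6.87% or below.

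The members covered a wide range of depth. The total over the 9 libraries ran from 20 to 1332 reads with a median of 51, and 32 members had at least 100 reads. Members made up 8.78% of the circRNAs with 20 to 29 reads, 8.73% of those with 30 to 49, 12.8% of those with 50 to 99 and 18.7% of those with 100 or more. At 3 dpa 6 of the 10 most abundant circRNAs were members, against 0 in intact fin and 1 at 7 dpa. The intact and 3 dpa ranks use the values that chose the members, so the rule favours this difference and the counts are a description. The ratio of the 3 dpa to the intact mean was 4.70 at the median, with an interquartile range of 3.00 to 7.51 over the 102 members with an intact read. For 36 of the 104 members the lowest 3 dpa read count was not above the highest intact read count, so these were separate in RPM but not in reads, the 3 dpa libraries being shallower.

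The 8 members with most reads together held 2.37% ± 0.54 of the circRNA reads in intact fin, then 12.7% ± 0.78 (3 dpa) and 6.64% ± 0.51 (7 dpa; SD, n = 3). The other 96 members held 2.75% ± 0.08, 11.1% ± 0.18 and 6.39% ± 0.16. Of these 96, 24 had at least 100 reads.

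The deepest member, novel_circ_000641, had 135, 99 and 57 reads in the intact libraries, 175, 221 and 203 at 3 dpa and 116, 184 and 142 at 7 dpa. Its mean was 6179 ± 2331 RPM in intact fin, then 15803 ± 1443 (3 dpa) and 11499.5 ± 2948 (7 dpa; SD, n = 3). It was already among the 20 most abundant circRNAs of intact fin (rank 19) and stood at rank 6 at 3 dpa and 9 at 7 dpa. Its 7 dpa mean was 1.86 times the intact mean. In read count the 7 dpa and intact libraries overlapped, and in RPM the lowest 7 dpa value (8588) was barely above the highest intact value (8555).

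For novel_circ_004677 the intact libraries had 57, 39 and 37 reads, those at 3 dpa 197, 295 and 225, and those at 7 dpa 192, 120 and 71. The 7 dpa libraries were spread widely, from near the lowest 3 dpa count to near the highest intact count (9791 ± 4261 RPM, SD, n = 3). novel_circ_004674 had 51, 72 and 66 reads in intact fin, then 228, 249 and 187 (3 dpa) and 117, 40 and 138 (7 dpa). Its second 7 dpa library was thus below every intact library in reads. novel_circ_004675 had 32, 29 and 31 reads, then 142, 211 and 220, then 173, 76 and 70. Here the first 7 dpa library overlapped the 3 dpa range and the other two did not.

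The read counts of novel_circ_001964 were 34, 74 and 20 in intact fin, then 224, 259 and 245 (3 dpa) and 102, 119 and 95 (7 dpa). The 3 groups did not overlap, and the intact libraries differed among themselves more than those of the regenerates did in proportion (2691 ± 1658, 19226 ± 1093 and 8188 ± 1022 RPM; SD, n = 3). novel_circ_001965 had 27, 52 and 11 reads, then 152, 181 and 153, then 67, 88 and 60. novel_circ_001966 had 28, 50 and 11 reads, then 149, 180 and 154, then 69, 87 and 61. Of these neighbours in number, novel_circ_001965 and novel_circ_001966 had nearly the same read count in each of the 9 libraries. The count of novel_circ_001964 was higher in every library. Whether these neighbours share reads was not tested.

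The remaining one of the 8, novel_circ_004064, had 36, 42 and 26 reads in intact fin, then 194, 169 and 208 (3 dpa) and 128, 134 and 123 (7 dpa). Its 7 dpa libraries were close together (9974 ± 539.7 RPM, SD, n = 3) and lay apart from both other groups.

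**Figure D3:**
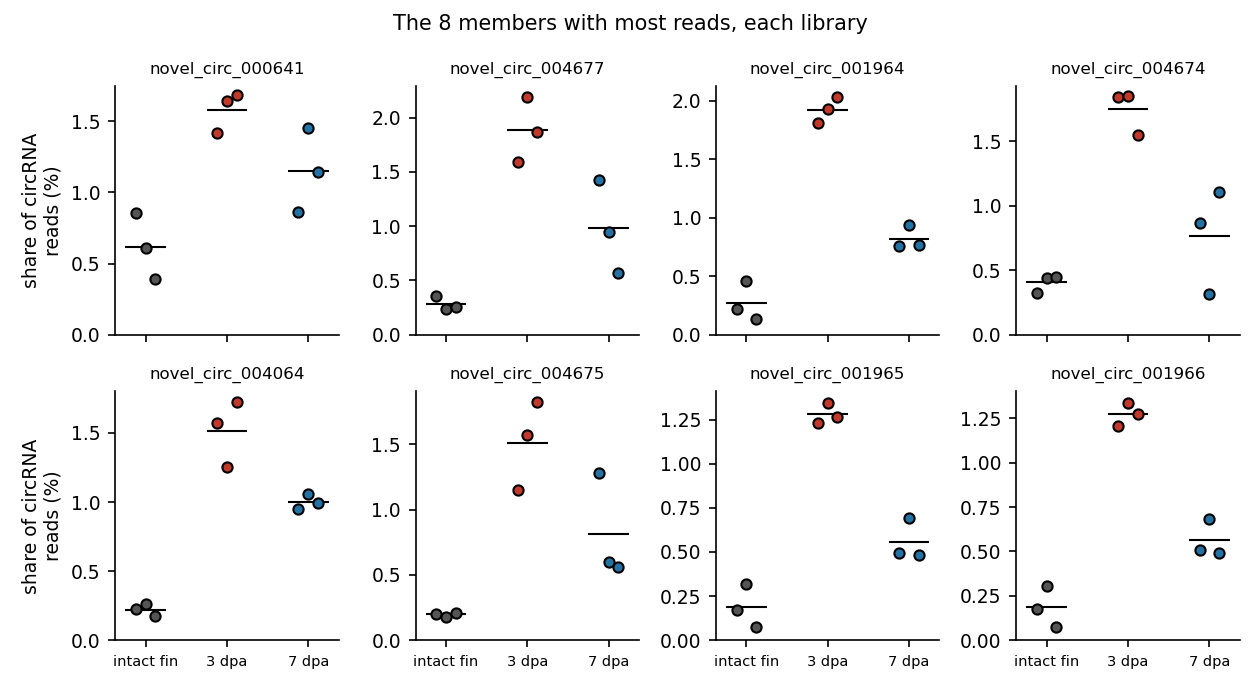
Share of circRNA reads (%) in each library for the 8 members with most reads, with 1 point per library and a line at each group mean. novel_circ_001964, novel_circ_001965, novel_circ_001966, novel_circ_004064 and novel_circ_004677 show 3 groups without overlap. At 7 dpa novel_circ_004677, novel_circ_004674 and novel_circ_004675 spread widely.

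The largest ratios of 3 dpa to intact fin belonged to members with few reads. In intact fin 23 members had 3 or fewer reads over the group. novel_circ_003816 had 1, 0 and 0 reads in intact fin, then 7, 1 and 9 (3 dpa) and 4, 1 and 3 (7 dpa). Its mean RPM ratio was 21.9, and from summed reads it was 20.9 with an exact 95% counting interval from 3.28 to 875. novel_circ_001710 had 1, 0 and 0 reads, then 5, 7 and 5, then 3, 4 and 5, with the same summed ratio and interval. Both intervals are so wide that the order of the largest ratios cannot be read.

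Of the 6 members with the largest ratio, the best covered was novel_circ_004062, with 1, 4 and 0 reads in intact fin, then 22, 16 and 27 (3 dpa) and 15, 13 and 13 (7 dpa). From summed reads the counting interval of its ratio ran from 6.52 to 51.0. The other 3 of these 6 each had 1 intact read. novel_circ_004887 had 8, 1 and 6 reads at 3 dpa, novel_circ_002610 had 6, 2 and 6, and novel_circ_003391 had 2, 8 and 3, so that 3 dpa libraries of a single circRNA differed severalfold.

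Only novel_circ_000163 and novel_circ_005244 among the 104 members had 0 reads in every intact library. There 0 of 46674 pooled reads allows a level of up to 64.3 RPM (3 reads over the group, a one-sided 95% limit). The two-sided exact 95% counting interval of 0 reads has a higher upper end, 3.69 reads. novel_circ_000163 had 6, 11 and 5 reads at 3 dpa and 1, 0 and 0 at 7 dpa. The exact 95% counting interval of its 3 dpa to intact ratio from summed reads had a lower end of 6.75 and no upper end. novel_circ_005244 had 3, 4 and 3 reads at 3 dpa and 4, 0 and 6 at 7 dpa, and the lower end of the same interval was 2.76.

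The thresholds of the rule cut through a continuum. Just inside the 2-fold limit stood novel_circ_002816 with a ratio of 2.03, and just outside it novel_circ_003994 with 1.91. The lowest 3 dpa value of novel_circ_002087 was 1.02 times its highest intact value, just inside the limit of no overlap, and that of novel_circ_002848 was 0.99 times, just outside. At 20 reads stood 4 members, novel_circ_000005, novel_circ_000023, novel_circ_003384 and novel_circ_005244. With 19 reads, novel_circ_000886, novel_circ_001980 and novel_circ_002525 met the other conditions. Beyond the members, 64 circRNAs with at least 20 reads reached 2-fold with overlapping groups, and 24 had separate groups under 2-fold.

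Members gathered in runs of neighbouring ID numbers, a feature the rule did not use. The labels do not say what the numbers stand for. Of 34 members whose next number also had at least 20 reads, 21 (61.8%) were followed by another member, against 15 of 213 (7.04%) for the other circRNAs with at least 20 reads. Counted on either side, 34 of the 104 members (32.7%) had another member as direct neighbour. In the set of the mirrored rule 35 of 184 (19.0%) had a direct neighbour of that set. Among all 914 circRNAs with at least 20 reads 403 (44.1%) had such a neighbour. A larger set has more direct neighbours by its size, so these shares are a description. Runs were taken as at least 3 members with numbers no more than 5 apart, a definition made after the data were seen. There were 7 such runs with 37 members (35.6%), and every circRNA with at least 20 reads inside them was a member (37 of 37). Each run was drawn from members and ends at members, which favours a high share of members inside it. That count is therefore a description. Another 6 pairs and 55 single members made up the rest. Members of a run may share a host gene or reads, which was not tested, so they are not taken as independent.

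Members in the runs held 2.46% ± 0.39 of the circRNA reads in intact fin, then 15.8% ± 0.85 (3 dpa) and 7.50% ± 0.95 (7 dpa; SD, n = 3). The 67 members outside them held 2.66% ± 0.23, 8.06% ± 0.12 and 5.53% ± 0.47. In intact fin the summed shares of the 37 and the 67 overlapped, and at 3 dpa the runs held more. Of the 8 members with most reads, all but novel_circ_000641 stood in runs and weigh heavily in that sum. The intact and 3 dpa values chose the members, and the runs were drawn after the data were seen. The comparison is therefore a description.

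**Figure D4:**
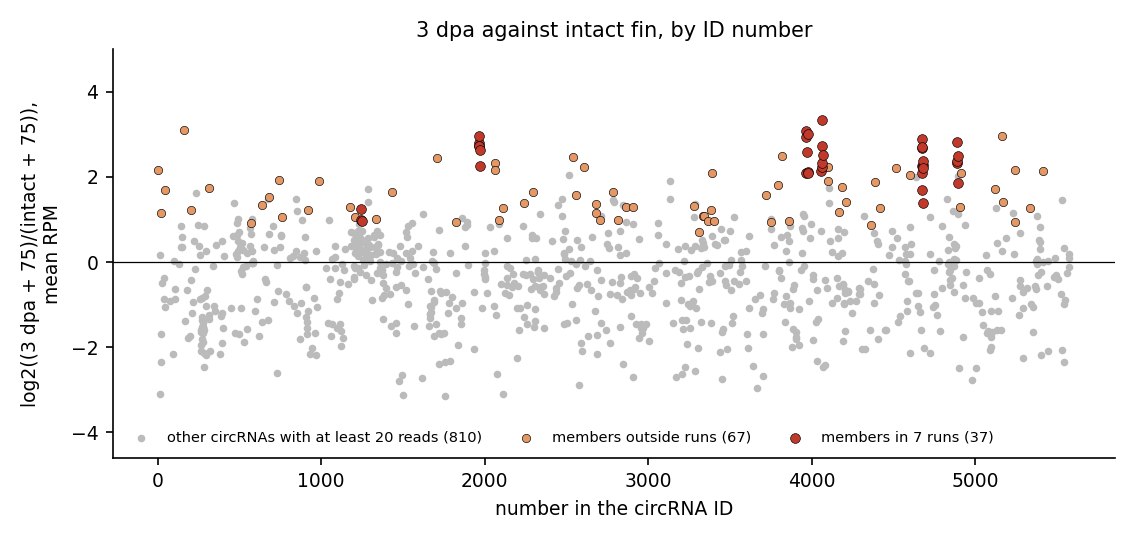
Log2 ratio of the mean RPM + 75 at 3 dpa and in intact fin against the number in the circRNA ID, for the 914 circRNAs with at least 20 reads. Grey points are the 810 non-members, orange points the 67 members outside runs and red points the 37 members in 7 runs. The red points stand in narrow columns, and members lie at the top by the rule.

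The longest run, from novel_circ_004672 to novel_circ_004683, had 10 members among 12 listed numbers. Its summed share was 1.14%, 1.08% and 1.26% in the intact libraries, 5.83%, 7.45% and 6.88% at 3 dpa and 4.58%, 2.45% and 2.82% at 7 dpa. The first 7 dpa library stood above the other two, and the groups did not overlap. The ratio of the 7 dpa to the 3 dpa mean ran from 0.31 to 0.73 over its members.

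From novel_circ_001964 to novel_circ_001973 there were 6 members, with 0.58%, 1.11% and 0.29% in intact fin, then 4.46%, 4.78% and 4.83% (3 dpa) and 1.85%, 2.33% and 1.85% (7 dpa). The intact libraries differed by over 3-fold, and the 7 dpa libraries were all above them. The 7 dpa to 3 dpa ratio had a median of 0.43 over its members and a lowest value of 0.11, that of novel_circ_001972 with 1, 0 and 1 reads at 7 dpa.

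The run from novel_circ_004059 to novel_circ_004068, again of 6 members, kept the most of its 3 dpa share. It held 0.35%, 0.39% and 0.25% in intact fin, then 2.49%, 1.80% and 2.62% (3 dpa) and 1.47%, 1.53% and 1.49% (7 dpa). At 7 dpa 59.0% of its 3 dpa difference remained, against 38.1% for the run at novel_circ_004672 and 33.5% for that at novel_circ_001964.

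The smaller runs differed in what was left at 7 dpa. The 4 members from novel_circ_003963 to novel_circ_003969 held 0.0932% ± 0.031 in intact fin, then 0.903% ± 0.12 (3 dpa) and 0.233% ± 0.018 (7 dpa; SD, n = 3), with 17.3% of the difference left. The 5 members from novel_circ_004887 to novel_circ_004894 held 0.0820% ± 0.023, 0.626% ± 0.079 and 0.194% ± 0.013, with 20.6% left. For the 3 members from novel_circ_003975 to novel_circ_003979, only 6 numbers from the end of another run, the shares were 0.0535% ± 0.0086, 0.356% ± 0.058 and 0.199% ± 0.010, with 48.2% left. The differences between runs were not tested. The last run, from novel_circ_001244 to novel_circ_001247, had 3 members and the lowest 3 dpa to intact ratio of its summed share (2.37, with 15.0% left).

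The 7 runs also spanned 19 listed circRNAs with fewer than 20 reads, which the rule could not choose. Summed over each group, these had 16 reads in intact fin, then 80 (3 dpa) and 28 (7 dpa), or 343, 2112 and 725 RPM of the pooled reads. In 6 of the 7 runs they had more reads at 3 dpa than in intact fin, and in the run at novel_circ_001244 they had 3 in intact fin and 1 at 3 dpa. The counts were small, from 1 to 22 reads per run at 3 dpa. These 19 were picked by their place in runs drawn around members after the data were seen. Whether they share reads with those members was not tested, so their counts are a description. The share of all circRNAs under 20 reads was lower at 3 dpa than in intact fin.

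**Figure D5:**
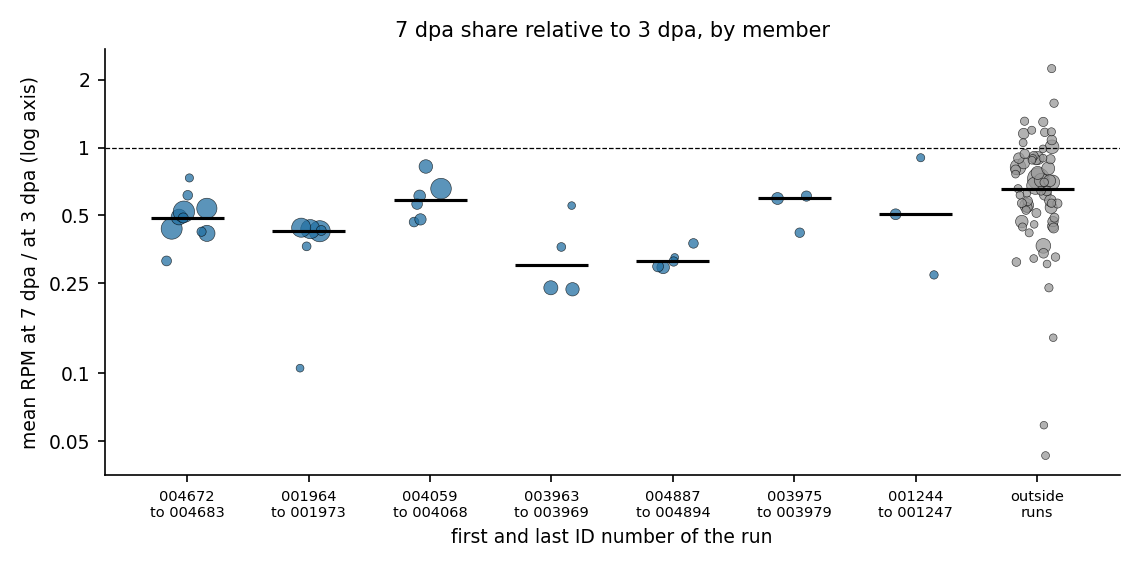
Ratio of the mean RPM at 7 dpa to that at 3 dpa (log axis) for each of the 104 members, by run of ID numbers and for members outside runs. Point area grows with the reads of a member, lines are medians and the dashed line marks an equal share. The medians are 0.49 for the longest run, 0.30 for the run at novel_circ_003963 and 0.66 outside runs.

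Of the 104 members, 88 had a 7 dpa mean between the intact and the 3 dpa mean, 11 at or above the 3 dpa mean and 5 at or below the intact mean. Over the 914 circRNAs with at least 20 reads these counts were 486, 236 and 192. In the set of the mirrored rule, 155 of 184 (84.2%) lay between, against 84.6% of the members. Selection for a high 3 dpa and a low intact value favours a position between, so the counts are a description. All 54 members with at least 50 reads had a 7 dpa mean above the intact mean, and 51 of them lay between. Selection favours these counts as well. The same counts over all circRNAs with at least 50 reads were not taken, so they are a description.

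Every 7 dpa library lay above every intact library for 52 members (50%), against 9.41% of the circRNAs with at least 20 reads and 6.1% of the 3213 tested. Every 7 dpa library lay below every 3 dpa library for 41 members (39.4%), against 6.35% and 4.3%. The members were chosen with the intact and 3 dpa libraries, which favours both directions. The set of the mirrored rule was chosen with the same libraries. There every 7 dpa library lay below every intact library for 69 of 184 (37.5%). For 53 of the 184 (28.8%) every 7 dpa library lay above every 3 dpa library. For 0 members did every 7 dpa library lie above every 3 dpa library, against 9.52% of the circRNAs with at least 20 reads and 5.01% of those tested. For 0 members did every 7 dpa library lie below every intact one, against 9.96% and 5.98%. Only 69 of the 104 members were read in every intact library, and for the others no 7 dpa value can lie below an intact 0. Choosing high 3 dpa and low intact values works against both of these last patterns, so their counts are a description.

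The comparison of 7 dpa with intact fin asked which members still had a larger share later in regrowth. limma on log2(RPM + 75), fitted on all 3213 circRNAs with a Benjamini-Hochberg adjusted p under 0.05, called 14 of the 104 members higher (13.5%), against 0.467% of all circRNAs tested, and 0 lower, against 0.187%. The shares over all circRNAs include the members. Of the 810 other circRNAs with at least 20 reads, 1 was called higher and 6 lower. At an unadjusted p under 0.05, 50 members were higher, against 3.8% of all tested, and 0 lower, against 4.64%. edgeR called 13 members higher, against 0.436% of all 3213, and 0 lower, against 0.0311%. DESeq2 gave an adjusted p for 286 circRNAs, 47 of them members, and called 10 members higher, against 3.5% of the 286, and 0 lower, against 0.35%. The intact libraries took part in choosing the members, which favours a call in this direction. Apart from novel_circ_000315, novel_circ_000641, novel_circ_002543 and novel_circ_005416, the 14 called members stood in runs of ID numbers. The 14 calls are therefore not taken as independent.

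The largest fitted difference belonged to novel_circ_004062, described above, at 2.93 on the log2 scale (SE 0.51, limma adjusted p = 4.36e-06). novel_circ_002543 had 4, 9 and 5 reads in intact fin, then 33, 34 and 27 (3 dpa) and 39, 33 and 25 (7 dpa). It stood as high at 7 dpa as at 3 dpa (2499 ± 446 and 2478 ± 220.3 RPM; SD, n = 3) and rose against intact fin by 2.53 on the log2 scale (SE 0.40, limma adjusted p = 1.53e-07).

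novel_circ_004064 rose by 2.15 (SE 0.26, limma adjusted p = 2.72e-13). In the same run novel_circ_004060, with 14, 8 and 1 reads in intact fin, then 38, 21 and 36 (3 dpa) and 30, 25 and 26 (7 dpa), rose by 2.34 (limma adjusted p = 3.74e-06). The log2 rises of novel_circ_001964, novel_circ_001965 and novel_circ_001966 were 1.74, 1.72 and 1.74. Those of novel_circ_004675 and novel_circ_004677 were 1.90 and 1.68. The calls of these 9 members, novel_circ_004062 and novel_circ_002543 included, were kept when any single library was left out. A left-out library was dropped from the fit only, and the members stayed those chosen with all libraries.

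The other 5 calls were each lost when some single library was left out. novel_circ_004676 had 14, 11 and 13 reads in intact fin and 51, 33 and 25 at 7 dpa and rose by 1.65, a call lost without replicate 1 of 7 dpa (limma adjusted p = 0.0522). novel_circ_000315, with 8, 15 and 4 reads in intact fin and 22, 21 and 29 at 7 dpa, and novel_circ_003979, with 2, 1 and 0 and 7, 7 and 10, rose by 1.71 and 2.44. Both calls were lost without replicate 3 of intact fin or replicate 3 of 7 dpa (highest limma adjusted p 0.202 and 0.131). The rise of novel_circ_000641 by 0.93 was lost without replicate 2 or 3 of intact fin or of 7 dpa (highest limma adjusted p 0.456). novel_circ_005416, with 0, 2 and 3 reads in intact fin and 9, 7 and 9 at 7 dpa, rose by 2.16, a call lost without any 7 dpa library, replicates 1 or 2 of intact fin or replicate 3 of 3 dpa (highest limma adjusted p 0.363).

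The comparison of 7 dpa with 3 dpa asked which members had given up part of their share by then. In the same fit 11 members were lower at 7 dpa (10.6%), against 0.342% of all 3213 circRNAs, and 0 were higher, against 0.311%. The share called lower over all circRNAs consists of these 11 members. Of the 810 other circRNAs with at least 20 reads, 0 were called lower and 10 higher. At an unadjusted p under 0.05, 34 members were lower, against 2.4% of all tested, and 0 higher, against 5.48%. edgeR called 9 members lower, against 0.28% of all 3213, and 0 higher, against 0.218%. DESeq2 called 9 of its 47 members lower, against 3.15% of its 286 circRNAs, and 0 higher, against 0.699%. All circRNAs that edgeR and DESeq2 called lower were members, so these shares too consist of members. For each tool 8 of the 9 were among the 11 limma calls. The 3 dpa libraries took part in choosing the members, which favours a fall. Apart from novel_circ_003720 and novel_circ_000163, the 11 called members stood in runs of ID numbers. The 11 calls are therefore not taken as independent. Leaving out replicate 2 of 3 dpa gave 4 calls and leaving out its replicate 3 gave 5. Leaving out a 7 dpa library gave 7 calls (replicate 1), 7 (replicate 2) or 4 (replicate 3).

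The run at novel_circ_003963 held 2 of the 11 calls. novel_circ_003963 had 4, 15 and 3 reads in intact fin, then 64, 60 and 45 (3 dpa) and 12, 15 and 14 (7 dpa), and fell by 1.99 on the log2 scale (SE 0.41, limma adjusted p = 0.00115). novel_circ_003966 had 10, 4 and 5 reads, then 47, 53 and 37, then 14, 12 and 7, and fell by 2.03 (SE 0.42, limma adjusted p = 0.00124). With novel_circ_001964, which fell by 1.23 (SE 0.26, limma adjusted p = 0.00115), these were the calls kept when any single library was left out. Leaving out an intact library did not change the size of these falls, since it belongs to neither group compared.

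novel_circ_004674 fell by 1.36 (limma adjusted p = 8.33e-05), a call lost without replicate 2 of 7 dpa, its lowest library (limma adjusted p = 0.196). The count tests gave it larger adjusted p-values, 0.00652 in edgeR and 0.0183 in DESeq2. The falls of novel_circ_001965 and novel_circ_001966, by 1.21 and 1.18, were lost without replicates 2 or 3 of 3 dpa or 1 or 3 of 7 dpa (highest limma adjusted p 0.0883 and 0.097). novel_circ_004677 fell by 1.02, lost without replicates 2 or 3 of 3 dpa or 3 of 7 dpa (highest limma adjusted p 0.475). novel_circ_004675 fell by 0.97, lost without replicate 1 of intact fin, replicates 2 or 3 of 3 dpa or 2 or 3 of 7 dpa (highest limma adjusted p 0.515). Neither edgeR (adjusted p 0.142) nor DESeq2 (adjusted p 0.0543) called it.

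Outside any run, novel_circ_003720, with 20, 38 and 5 reads in intact fin, then 49, 76 and 31 (3 dpa) and 11, 27 and 19 (7 dpa), fell by 1.43. Its 7 dpa mean was 1.13 times the intact mean, but its intact libraries spread widely (1315 ± 998 RPM, SD, n = 3). Whether its share was back at the intact level was not tested. The call of its fall was lost without replicates 1 or 2 of 3 dpa or 1 or 3 of 7 dpa (highest limma adjusted p 0.429). In the longest run novel_circ_004673, with 50, 110 and 82 reads at 3 dpa and 50, 24 and 29 at 7 dpa, fell by 1.24, lost without replicates 2 or 3 of 3 dpa or of 7 dpa (highest limma adjusted p 0.433). The fall of novel_circ_000163 by 2.73 was lost without any library of 3 dpa or 7 dpa (highest limma adjusted p 0.227).

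The 5 members with the highest ratio of 7 dpa to 3 dpa mean were all shallow. novel_circ_003310 had 1, 2 and 1 reads in intact fin, then 2, 2 and 3 (3 dpa) and 3, 9 and 4 (7 dpa), a ratio of 2.24. novel_circ_000742 had 1, 0 and 0 reads, then 6, 3 and 2, then 10, 5 and 3, a ratio of 1.57. For novel_circ_004363, novel_circ_005118 and novel_circ_002907 the ratios were 1.31, 1.30 and 1.19. From summed reads the counting interval of each of these 5 ratios included an equal share, with that of novel_circ_003310 running from 0.87 to 6.44.

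At the other end, novel_circ_000005 had 1, 1 and 0 reads in intact fin, then 5, 7 and 5 (3 dpa) and 0, 1 and 0 (7 dpa). novel_circ_003384 had 2, 3 and 0 reads, then 6, 4 and 3, then 2, 0 and 0. With novel_circ_000163, novel_circ_001972 and novel_circ_003966 they had the lowest ratios of 7 dpa to 3 dpa mean, from 0.04 for novel_circ_000163 to 0.24 for novel_circ_003966. All but novel_circ_003966 had only 1 or 2 reads over the 7 dpa group.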

How the data were processed

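Total RNA libraries of zebrafish caudal fin were sequenced (Illumina HiSeq, according to the series design). The submitters' processing notes name edgeR, RSEM, cutadapt and TopHat2 2.0.3.12 without saying what each did, and the human build hg38. A circRNA caller and a zebrafish build are not given in the sources used here. The deposited table held RPM values made by the authors, scaled per library to the sum of its circRNA reads. Each value was divided by the smallest value above 0 of its library, and 100% were whole within 0.001 reads.

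limma 3.58.1 in R 4.3.3 (trend, robust) was run on log2(RPM + 75), about 1 read, over 3213 circRNAs above 0 in at least 3 libraries, with all 9 libraries in one model, no covariate, two-sided tests and Benjamini-Hochberg adjustment. A log2 change on this scale understates that of low circRNAs. The residual degrees of freedom were 6, and the prior was infinite for the median circRNA, so most standard errors come from the mean-variance trend and the smallest p-values rest on it. edgeR 4.0.16 and DESeq2 1.42.0 were run on the recovered reads, with no shrinkage. The limma script was also run on simulated data with the same spread setting for all circRNAs, and no result here rests on that run. Descriptive values were computed in Python 3.11.15. The read depth of 12070 to 16262 per library leaves members near 20 reads with wide counting intervals. The labels describe no molecular identifiers, so intervals cover counting error only. For pairs of libraries of the same group, the chi-square per degree of freedom was 2.12 to 3.33, more than counting error alone gives.

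The members, tests and lists were chosen with earlier results of these data known. Named were the 8 members with most reads, the 6 with the largest 3 dpa to intact ratio, those with 0 intact reads, the 5 highest and 5 lowest in 7 dpa to 3 dpa ratio, the called members (by the rule the 10 with smallest p in each comparison; the others were added after their values were seen) and those beside a threshold. The runs of ID numbers were added after the data were seen. The mRNA and lncRNA tables were not used here.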

Additional observations from a re-analysis of the deposited data

Results flagged for a closer look

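For 11 members the change from intact fin was not the same size at 3 dpa and 7 dpa, by the limma test of 7 dpa against 3 dpa, which called 0.342% of all 3213 circRNAs in this direction. Of these 11 calls 3 were kept when any single library was left out. Both changes share the intact libraries. Apart from novel_circ_003720 and novel_circ_000163, these members stood in runs of ID numbers and are not taken as independent. The log2 change from 3 to 7 dpa was -1.36 for novel_circ_004674, -1.99 for novel_circ_003963, -1.23 for novel_circ_001964, -2.03 for novel_circ_003966, -1.21 for novel_circ_001965 and -1.18 for novel_circ_001966. It was -1.02 for novel_circ_004677, -1.43 for novel_circ_003720, -1.24 for novel_circ_004673, -2.73 for novel_circ_000163 and -0.97 for novel_circ_004675. The members were chosen for high 3 dpa values, which favours a negative sign. No cause was tested.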

How the results depend on the processing

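The number of members called lower at 7 dpa than at 3 dpa (11) moved most. It was 5 with a pseudocount of 1 RPM, 7 with no filter, 4 among circRNAs with at least 20 reads, 6 with quantile normalization, 14 with only the 2 groups compared and 4 to 12 when 1 library was left out. The cause was not tested. The number called higher at 7 dpa than in intact fin (14) was 10 to 17 over 20 alternatives and 12 to 15 when 1 library was left out. No call of a named member reversed, and 2 of the 11 and 6 of the 14 calls were kept in every alternative that gave a value. With the replicate number as a block, 9 and 13 members were called. Deviations of same-numbered libraries correlated at -0.036 to 0.025 and those of differently numbered libraries at -0.037 to 0.032. Counting noise is large at this read depth. Whether same-numbered libraries share more than a number therefore cannot be told from these values.

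The summed 7 dpa share of 13.0% was 11.8% over the members with at least 50 reads and 12.7% to 13.4% when 1 library was left out. The share of members between intact fin and 3 dpa (84.6%) was 79.8% to 94.4% over 11 alternatives. Left-out pairs gave ratios of 3.26 to 4.29 with a median of 3.73. These ratios are for the circRNAs chosen without each pair, which were not all members. With numbers no more than 1, 2 or 10 apart, chosen after seeing the data, runs held 16, 28 or 37 members.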
